A study of Mus musculus with 8 samples.

Results

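The 10 genes described here, Actc1, Tnnt2, Tnni3, Tnnc1, Myh6, Myl7, Myl4, Ttn, Actn2 and Nppa, encode proteins of the heart muscle cell. They were measured by RNA sequencing in mouse cells that the labels call non-vascular smooth muscle cells, sorted from lung (2 libraries), intestine (3 libraries) and bladder (3 libraries). The genes were taken from the deposited table by symbol, 10 of 21649 rows, and had been selected on their high values in the lung libraries. Their level in lung is therefore a description and carries no test. All 8 libraries came from mice of 1 genotype, Cspg4-Dre/Acta2-CreERT/R26-GFP, in which a Dre recombinase under Cspg4, a tamoxifen-dependent Cre under Acta2 and a green fluorescent reporter at Rosa26 were combined. All mice received tamoxifen in corn oil (20 mg/mL) by injection into the abdominal cavity, at 0.75 mg for each 10 g of body weight, over 3 days. The age of the mice is not given in the sources used here. Cells were sorted by fluorescence, and the RNA, at most 10 ng, was amplified with a full-length cDNA kit for low input. Each library is the RNA of a pool of sorted cells, in which fewer cells of a type and less RNA per cell cannot be told apart.

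Striated muscle contracts by the sliding of actin thin filaments along myosin thick filaments within the sarcomere. Calcium acts through the troponin complex on the thin filament, the Z-disc anchors the thin filaments, and titin spans from the Z-disc to the middle of the thick filament. Smooth muscle has no sarcomeres and no troponin-based switch, and uses its own actin and myosin genes. In mice a sleeve of heart muscle extends along the pulmonary veins into the lung, as textbook anatomy describes. Heart muscle cells of the atria and ventricles share most sarcomere genes but differ in some myosin light chains and hormones.

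The libraries held 12.67 to 13.62 M reconstructed reads in lung, 12.02 to 13.19 M in intestine and 9.72 to 10.95 M in bladder. Values are read counts scaled per library and rounded by the authors, called normalized values below. A library without a read of a gene could have held up to 3 reads, a normalized value of 2.47 to 3.81 depending on the library. Such floors and all counting intervals cover counting error only, because the kit amplifies cDNA without molecular identifiers and reads can share a molecule of origin. The smooth muscle markers Acta2, Myh11, Tagln, Cnn1, Actg2, Lmod1 and Des were read in every library, their sum being 2302 and 2308 ppm of all values in the lung libraries, 2137 to 2313 ppm in intestine and 1276 to 1591 ppm in bladder. Pericyte and vascular smooth muscle markers, among them Cspg4 and Notch3, summed to 2024 and 1828 ppm in lung, 2060 to 2179 ppm in intestine and 681 to 709 ppm in bladder, so the libraries were not free of them. The 10 markers of alveolar and airway epithelium summed to 366 and 354 ppm in lung, 502 to 517 ppm in intestine and 61.1 to 93.9 ppm in bladder. Within that list Sftpc was at 1234 and 1272 in lung, at most 2 in intestine and at most 6 in bladder, whereas Epcam, shared by many epithelia, was at 32 and 56 in lung, 2423 to 2658 in intestine and 109 to 183 in bladder. Endothelial markers summed to 568 and 639 ppm, fibroblast markers to 2225 and 2483 ppm and leukocyte markers to 164 and 170 ppm in lung libraries 1 and 2. The part of these other cells in the values below was not tested.

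Summed over the 10 heart muscle genes, the values made up 569 and 477 ppm of lung libraries 1 and 2, 48.6 to 52.7 ppm of the intestine libraries and 47.3 to 58.6 ppm of the bladder libraries. In 9 of the 10 genes both lung libraries lay above all 6 other libraries, where 14.2% of all tested genes did the same. Since the genes were selected for that pattern, nothing is read from this count. The exception was Actn2, whose intestine values overlapped those of lung. The median log2 difference of the 10 genes was 3.86 for lung minus intestine and 4.30 for lung minus bladder, against -0.039 and 0 over all 18097 tested genes. With Nppa, which had no read in intestine, set to its lower bound, the median for lung minus intestine was 3.19. Per kb of transcript the level in lung ran in the order Actc1 (1581 per kb), Tnnt2 (1171 per kb), Myl7 (910 per kb), Myl4 (416 per kb), Tnni3 (389 per kb), Tnnc1 (148 per kb), Myh6 (97.0 per kb), Actn2 (30.2 per kb), Nppa (23.7 per kb) and Ttn (1.18 per kb), as means of the 2 lung libraries. The order was the same in lung library 2, and in lung library 1 Tnni3 (471 per kb) was above Myl4 (431 per kb). Ttn has by far the longest transcripts of the set, with a median of 91123.5 nt.

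The 10 genes ranged from near-even values in the lung libraries to about 3 times more in lung library 1. Promoters are shown of Actc1 and Myl7 as near-even genes and of Myh6 and Nppa as uneven ones. These genes are not strictly the ends of the range, as Tnnt2 and Myl4 were more even than Myl7 and Ttn more uneven than Nppa. A relation of promoter motifs to the ratio was not tested. The promoters are RefSeq sequences of build GRCm38.p6, each running from 250 bases before the annotated start to 50 bases after it, 5′ to 3′ on the gene's strand. Capitals mark CArG boxes (the binding motif of serum response factor), TATAAA and GATAA on either strand (TTATC where read on the other strand). The windows are chr2:114052826-114053125 (minus strand) for Actc1, chr11:5898733-5899032 (minus strand) for Myl7, chr14:54966558-54966857 (minus strand) for Myh6 and chr4:148000472-148000771 (plus strand) for Nppa.
Actc1: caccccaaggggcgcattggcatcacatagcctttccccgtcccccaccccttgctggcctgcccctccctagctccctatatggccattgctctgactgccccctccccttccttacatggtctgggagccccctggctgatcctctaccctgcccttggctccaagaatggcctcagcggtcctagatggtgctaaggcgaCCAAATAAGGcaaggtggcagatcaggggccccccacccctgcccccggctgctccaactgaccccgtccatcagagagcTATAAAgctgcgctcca
Myl7: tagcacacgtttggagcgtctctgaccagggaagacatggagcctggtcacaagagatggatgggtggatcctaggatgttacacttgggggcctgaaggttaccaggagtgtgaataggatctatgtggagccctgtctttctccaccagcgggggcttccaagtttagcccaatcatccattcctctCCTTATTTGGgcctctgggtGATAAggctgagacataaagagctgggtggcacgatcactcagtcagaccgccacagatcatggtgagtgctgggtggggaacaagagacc
Myh6: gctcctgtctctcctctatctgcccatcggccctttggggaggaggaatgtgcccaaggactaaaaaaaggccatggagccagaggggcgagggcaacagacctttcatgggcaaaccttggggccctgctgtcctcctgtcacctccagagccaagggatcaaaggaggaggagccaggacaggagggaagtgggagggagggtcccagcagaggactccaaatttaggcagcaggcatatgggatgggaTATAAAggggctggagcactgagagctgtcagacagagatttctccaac
Nppa: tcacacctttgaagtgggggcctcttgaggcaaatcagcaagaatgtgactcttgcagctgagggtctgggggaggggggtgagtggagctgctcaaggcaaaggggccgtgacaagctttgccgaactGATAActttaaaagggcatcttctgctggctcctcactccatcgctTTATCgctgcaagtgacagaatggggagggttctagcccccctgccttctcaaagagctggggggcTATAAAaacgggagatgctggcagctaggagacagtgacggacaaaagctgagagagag
All 10 genes had an entry among the RefSeq promoters, with 11 windows because Tnnt2 had 2. A CArG box was present in Actc1, 47 bases before the start, and in Myl7, 61 bases before it, and in 1.63% of all 32851 promoter windows. The near-even genes Tnnt2 and Myl4 had none. A MEF2 motif was found in the Ttn window, and in 3.19% of all windows. TATAAA was found in Actc1, Myh6 and Nppa and in 13.6% of all windows, and GATAA in Myl7, Nppa, Tnni3 and Tnnt2 and in 25.4% of all windows. The NKX2-5 core AAGTG was found in Myh6, Myl4, Myl7 and Nppa (46.4% of all windows), and the TEAD core CATTCC in Myh6, Myl7, Tnnc1, Tnnt2 and Ttn (14.7% of all windows). Both strands were searched, and no matches of different motifs overlapped. A match is only a run of letters in the window.

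Among the thin filament genes, Actc1 had the highest level per kb of the 10. Actc1 encodes cardiac alpha-actin, the actin of the heart muscle thin filament (chromosome 2, 113877763 to 113884029, minus strand, build mm39). Lung libraries 1 and 2 had 2317 and 2342, intestine had 55, 38 and 115, and bladder had 55, 46 and 42. The lung libraries were nearly equal and stood far above the rest, while intestine overlapped bladder. The mean in lung was 33.6 times that in intestine and 48.9 times that in bladder. Per nt of transcript Actc1 had 1.91 and 1.84 reads in the lung libraries, where Acta2, the smooth muscle actin, averaged 1.56 reads. Other abundant genes were close to these values in lung, with means of 1.95 for Myh11, 2.01 for Actg2 and 1.76 for Col1a1. Whether reads per nt can rank genes at this level was not tested. Actc1 and Acta2 encode near-identical proteins, but no run of 50 bases of an Actc1 transcript was found in a transcript of another gene.

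The troponins are the calcium switch of striated muscle, with a tropomyosin-binding, an inhibitory and a calcium-binding subunit. Tnnt2, the tropomyosin-binding subunit of heart (chromosome 1, 135764092 to 135779998, plus strand), was at 1318 and 1268 in lung, 239, 250 and 246 in intestine and 524, 384 and 474 in bladder. It was therefore read well above the floor in every library, and the 3 tissues did not overlap. The mean in lung was 5.28 times that in intestine and 2.81 times that in bladder. Tnni3, the inhibitory subunit of heart (chromosome 7, 4521304 to 4527228, minus strand), was at 430 and 280 in lung, 4, 1 and 4 in intestine and 15, 20 and 18 in bladder. Intestine had 1 to 4 reads, close to the floor, and bladder was above it. The mean in lung was 118 times that in intestine and 20.1 times that in bladder. Tnnc1, the calcium-binding subunit of heart and slow skeletal muscle (chromosome 14, 30930269 to 30933686, plus strand), was at 127 and 87 in lung, 12, 12 and 4 in intestine and 1, 8 and 1 in bladder. Tnnc1 lies wholly inside the span of Nisch on the other strand, which had values of 5060 to 7241 in all libraries. Tnni3 shares 1297 bases with Dnaaf3 on the same strand, which was at 26 to 46 in all libraries. The kit does not mark the strand, so reads from overlapping genes cannot be told apart. The lung values of Nisch (6103 and 5060) and of Dnaaf3 (30 and 46) overlapped those of intestine, and Nisch was higher in all 3 bladder libraries (6994 to 7241).

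Of the thick filament genes, Myh6 encodes alpha-myosin heavy chain, the main motor of the adult mouse heart (chromosome 14, 55179378 to 55204384, minus strand). It was at 897 and 279 in the lung libraries, 1, 3 and 2 in intestine and 0, 3 and 1 in bladder. All 6 libraries of the other tissues were at about the floor, and the lung libraries differed 3.22 times from each other. Its mean in lung was 294 times that in intestine, the highest such fold among the 9 genes with reads in intestine. Its transcripts share 21.9% of their 50-base runs with Myh7, the beta-myosin heavy chain of the ventricle and slow muscle, which was at 7 and 1 in lung, 0, 3 and 22 in intestine and 0 in each bladder library. Myl7, the atrial regulatory light chain (chromosome 11, 5846637 to 5848782, minus strand), was at 569 and 505 in lung, 20, 22 and 15 in intestine and 19, 14 and 9 in bladder. The mean of Myl7 in lung was 28.3 times that in intestine and 38.4 times that in bladder. Myl4, the essential light chain of atrial and embryonic muscle (chromosome 11, 104441489 to 104486579, plus strand), was at 388 and 360 in lung, 157, 137 and 157 in intestine and 99, 89 and 93 in bladder. Like Tnnt2, Myl4 was read at a substantial level in all 3 tissues, and its tissues did not overlap. The mean of Myl4 in lung was 2.49 times that in intestine and 3.99 times that in bladder.

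Ttn encodes titin, the elastic filament that sets passive tension (chromosome 2, 76534324 to 76812891, minus strand). It was at 164 and 51 in lung, 14, 35 and 27 in intestine and 1, 8 and 4 in bladder, so each tissue had its own range. Actn2, the alpha-actinin that crosslinks thin filaments at the Z-disc of heart and skeletal muscle (chromosome 13, 12284312 to 12355641, minus strand), was at 129 and 50 in lung, 86, 59 and 37 in intestine and 8, 14 and 18 in bladder. Lung library 2 lay inside the range of intestine, and without lung library 1 the log2 difference of Actn2 from intestine was -0.19, against 0.48 with both. Actn2 thus overlapped between lung and intestine and was lowest in bladder. Nppa encodes the precursor of atrial natriuretic peptide, a hormone released by atrial muscle when stretched (chromosome 4, 148085179 to 148086536, plus strand). It was at 31 and 10 in lung, 0 in each intestine library and 0, 1 and 0 in bladder. Its mean in lung was at least 7.47-fold higher than in intestine, taking 3 reads for each intestine library. This limit was 11.3-fold from lung library 1 alone and 3.64-fold from lung library 2 alone. Nppa had the fewest reads of the 10 genes in lung, 38 and 12, and 53.4% of its 50-base runs lie also in an antisense transcript, Gm13054.

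**Figure D1:**
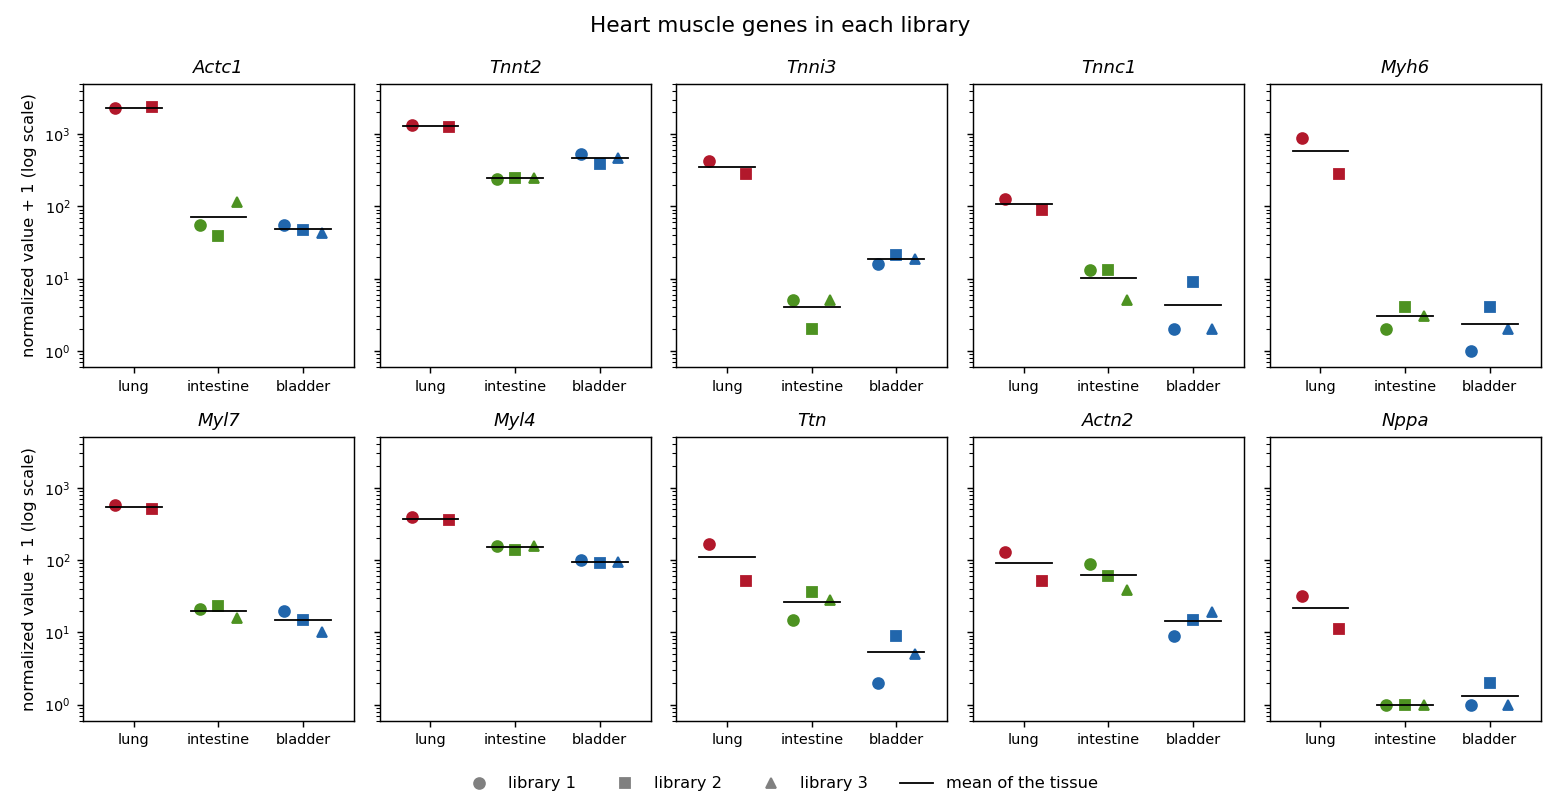
Normalized value plus 1 (log scale) of the 10 heart muscle genes in each lung, intestine and bladder library, with a line at the mean of the tissue. Both lung points lie above all others in 9 genes, Actn2 being the exception, and the lung points of Myh6, Ttn, Actn2 and Nppa lie apart.

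The 2 lung libraries did not hold the 10 genes in the same proportion. The ratio of library 1 to library 2 was 0.989 for Actc1 (95% exact counting interval 0.938 to 1.04), 1.04 for Tnnt2 (0.968 to 1.12) and 1.08 for Myl4 (0.943 to 1.23). These 3 intervals include equal values. Myl7 had a ratio of 1.13 (1.01 to 1.26), Tnnc1 of 1.46 (1.13 to 1.89) and Tnni3 of 1.54 (1.33 to 1.77). For the remaining genes the ratio was 2.58 for Actn2 (1.89 to 3.54), 3.10 for Nppa (1.54 to 6.32), 3.22 for Myh6 (2.84 to 3.66) and 3.22 for Ttn (2.40 to 4.38). In 7 of the 10 genes the interval lay above 1, and in none did it lie below, where it lay above 1 in 26.9% and below 1 in 29.7% of all tested genes. Genes of the same complex differed in this respect, as Tnnt2 was even and Tnni3 was not. The median log2 ratio of the 10 genes was 0.58, against -0.0021 over all tested genes, whose quartiles were -0.32 and 0.35. A ratio of at least 2 (values plus 1) was reached by 4 of the 10 genes and by 7.96% of all tested genes. With 1 library against 1 library this has no replicate check and compares these libraries only.

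**Figure D2:**
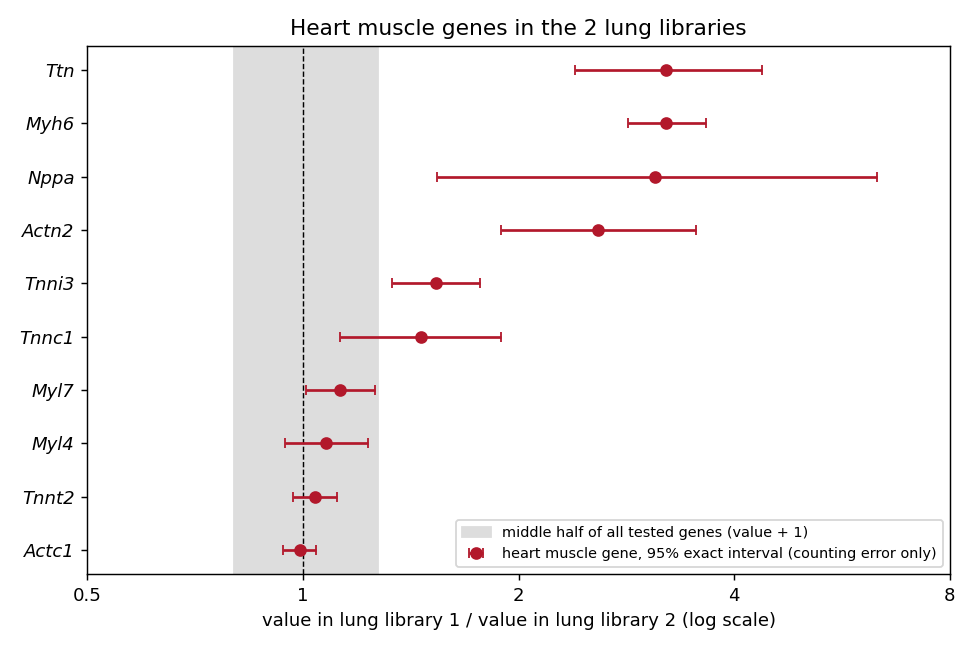
Ratio of the normalized value in lung library 1 to that in lung library 2 for each of the 10 genes (log scale), with 95% exact counting intervals. The grey band is the range between the quartiles of all tested genes. Actc1, Tnnt2, Myl4 and Myl7 lie within it and Tnni3, Actn2, Nppa, Myh6 and Ttn lie above it with their whole intervals.

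On the mean of the 2 lung libraries, the 4 most even genes were also those with the most reads per nt of transcript. In the 2 lung libraries Actc1 had 1.91 and 1.84 reads per nt, Tnnt2 had 1.45 and 1.33, and Myl7 had 1.17 and 0.988. Myl4 had 0.524 and 0.462, close to Tnni3 with 0.574 and 0.355, which was the higher of the pair in library 1. Among 13025 genes with a mean of at least 30 in lung and a known length, the median was 0.244 reads per nt and the 99th percentile was 2.05 and the highest was 6.24. Actc1 stood above 98.3% of these genes. The difference between the lung libraries narrowed with read density over all these genes. The SD of the log2 ratio was 0.83 in 1189 genes with under 0.03 reads per nt, 0.67 in 2602 genes with 0.03 to 0.1, 0.51 in 3453 genes with 0.1 to 0.3, 0.36 in 4141 genes with 0.3 to 1 and 0.21 in 1640 genes with 1 or more. A ratio of at least 2 was reached by 13.3% of the genes in the range of Ttn, 7.26% in that of Actn2 and 2.78% in that of Myh6 and Tnnc1. It was reached by 0.604% in the range of Myl4 and Tnni3, and by 0.244% in that of Actc1, Myl7 and Tnnt2. Picard, a tool that can remove duplicate reads, is named in the submitters' processing notes without its role. Whether read density set the even ratios of Actc1, Tnnt2 and Myl7 was not tested, and neither was its part in their folds over the other tissues, which had at most 0.391 reads per nt of Tnnt2 and 0.0815 of Actc1.

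**Figure D3:**
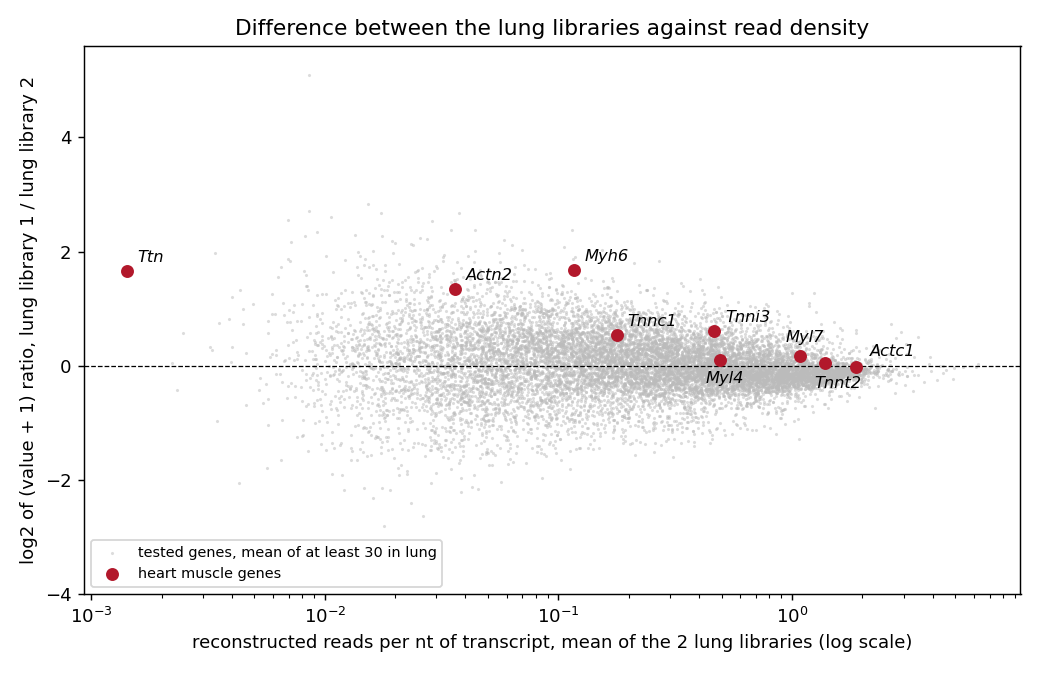
Log2 ratio of lung library 1 to lung library 2 (values plus 1) against reconstructed reads per nt of transcript in lung (log scale), for 13025 tested genes in grey and 9 of the heart muscle genes in red (Nppa had a lung mean under 30). The cloud narrows to the right, where Actc1, Tnnt2 and Myl7 lie close to 0, while Myh6 lies near its upper edge.

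Between intestine and bladder, a contrast that did not enter the choice of the genes, 8 of the 10 genes could be compared. Myh6 and Nppa had values of 0 to 3 in both tissues, at about the floor, and had entered the fit only through the lung libraries, so the test says nothing about them. By limma with Benjamini-Hochberg adjustment over all tested genes, 3 of the 8 were higher in intestine (28.7% of all tested genes were), 2 were lower in intestine (23.3% were) and 3 did not pass the threshold of 0.05. These shares are near those of all genes, so nothing particular to the genes is read from them. Myl4 averaged 150 ± 11.5 in intestine and 93.7 ± 5.03 in bladder (SD, n = 3 each), a log2 difference of 0.68 (SE 0.16, limma adjusted p = 0.00700). Under quantile normalization that call was lost and the difference was -0.029 (limma adjusted p = 0.897). Actn2 was higher in intestine by 2.09 on the log2 scale (SE 0.49, limma adjusted p = 0.00557), and Ttn by 2.46 (SE 0.66, limma adjusted p = 0.0117). Both calls were lost under quantile normalization (limma adjusted p = 0.0524 for Actn2 and 0.0520 for Ttn), and that of Ttn also without intestine library 2 (limma adjusted p = 0.0514). Tnnt2 was lower in intestine, with a log2 difference of -0.90 (SE 0.13, limma adjusted p = 0.000311), with means of 245.0 ± 5.57 in intestine and 461 ± 70.9 in bladder. Tnni3 was lower in intestine too, with a log2 difference of -2.33 (SE 0.45, limma adjusted p = 0.00192). For Actc1, Myl7 and Tnnc1 the log2 differences were 0.39, 0.46 and 1.52, with limma adjusted p of 0.39 for Actc1, 0.302 for Myl7 and 0.0873 for Tnnc1. Tnnc1 passed the threshold without bladder library 2 (limma adjusted p = 0.0111). The labels do not state whether each library is a separate mouse, so these p-values measure only the spread between libraries, which may be technical.

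Across the 8 libraries, the genes followed the mean of the other 9 to different degrees. Pearson's r on the log2 scale was 0.992 for Myh6, 0.974 for Myl7, 0.968 for Nppa, 0.960 for Actc1, 0.941 for Myl4 and 0.919 for Tnnc1. It was lower for Tnnt2 (0.810), Tnni3 (0.808), Ttn (0.782) and Actn2 (0.604), which are 4 of the 5 genes that differed between intestine and bladder. These values rest largely on the split between lung and the other tissues and are descriptions only. Candidates for likeness were 10842 other protein-coding genes with a mean of at least 100 in lung, predicted genes left out. Pearson's r with the mean of the heart muscle genes over the 8 libraries was highest for 10 of them. These were Cdh4 (0.994), Mapk4 (0.990), Setd6 (0.990), Pxdc1 (0.988), Sftpa1 (0.985), Csrp3 (0.984), Cacna2d3 (0.984), Itga9 (0.983), Ankrd1 (0.981) and Ap2a1 (0.981). Of these, Csrp3, a muscle LIM protein of the Z-disc, was at 182 and 44 in lung, at most 1 in intestine and 0 in bladder. Ankrd1, a stress-induced partner of titin, was at 605 and 835 in lung, 37 to 48 in intestine and 16 to 34 in bladder. Sftpa1, a surfactant protein of lung epithelium, was at 1386 and 1180 in lung and at most 1 elsewhere. Genes of unlike cell types thus share a higher level in lung. Pearson's r does not weigh the size of the difference. Setd6 averaged 850 in lung, 593 in intestine and 546 in bladder, Pxdc1 1615, 1010 and 961, and Ap2a1 2036.5, 1625 and 1544.

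Other genes of the sarcomere and Z-disc were looked at for the same pattern. Of 31 such genes tested, 23 were higher and 0 were lower in lung than in bladder (limma adjusted p under 0.05), while 19.2% of all tested genes were higher and 21.8% were lower. Against intestine 11 were higher and 2 were lower in lung, where 15.9% and 23.6% of all tested genes were. Intestine was higher than bladder in 13 and lower in 3, where 28.7% and 23.3% of all tested genes were. The counts of each further list below stand beside the same shares of all tested genes. The list's median log2 difference was 3.23 for lung minus bladder, 0.95 for lung minus intestine and 1.09 for intestine minus bladder. In 15 of the 31 both lung libraries lay above all others (14.2% of all tested genes), and 8 had a ratio of at least 2 between lung libraries 1 and 2 (7.96% of all tested genes). The list was drawn up with earlier results of these libraries known, so its counts are not independent evidence of a direction. Moreover, Mybphl, Myoz2, Lmod2, Myl3, Csrp3 and Mybpc3 passed the filter only through the lung libraries. All of them are in the counts of genes higher in lung, a direction fixed by the filter, so the test says nothing about them. They are also among the 15 genes with both lung libraries above all others, and they enter the list's medians. Myh7b, counted as lower in lung than in intestine and higher in intestine than in bladder, passed only through the intestine libraries. Myom2, counted as lower in intestine than in bladder, passed only through the bladder libraries. The test says nothing about these calls either.

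The genes of that list with the highest values in lung differed in how they compared with the other tissues. Des, the intermediate filament of all muscle, was at 3606 and 3775 in lung, 3628 to 3958 in intestine and 3152 to 4007 in bladder, and was not called between any pair of tissues (limma adjusted p from 0.187 to 0.718). Pdlim3, a Z-disc adaptor, was at 2494 and 2460 in lung, 2643 to 2894 in intestine and 1630 to 1861 in bladder. Myom1, which links thick filaments at the M-band, was at 2595 and 1190 in lung, 1907 to 2344 in intestine and 148 to 189 in bladder. Lung and intestine thus overlapped in Des and Myom1, and in Pdlim3 intestine was above lung. Nexn, an actin-binding Z-disc protein, was at 1819 and 1840 in lung, 737 to 886 in intestine and 240 to 332 in bladder. Nexn was higher in lung than in intestine by 1.16 and than in bladder by 2.68 on the log2 scale (limma adjusted p = 0.000229 and 1.66e-06). Lmod2, which nucleates thin filaments in heart, was at 20 and 24 in lung and 0 in all libraries of intestine and bladder. Other genes with little or no signal outside lung, named here after their values were seen, were Myoz2 (136 and 122 in lung, 0 in intestine, at most 8 in bladder), a calcineurin-binding Z-disc protein, and Mybphl (149 and 59 in lung, at most 5 in intestine, 0 in bladder), an atrial myosin-binding protein. Mybpc3, the cardiac myosin-binding protein C, was at 57 and 27 in lung, at most 6 in intestine and at most 7 in bladder.

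Atrial genes moved in both directions. Of 12 atrial genes tested, 9 were higher and 3 lower in lung than in bladder, 4 higher and 2 lower in lung than in intestine, and 6 higher and 2 lower in intestine than in bladder (limma). Mybphl, Hamp and Nppb, counted as higher in lung than in both other tissues, passed the filter only through the lung libraries. The test therefore says nothing about them. Corin, the protease that activates atrial natriuretic peptide, was at 880 and 315 in lung, 1112 to 1321 in intestine and at most 4 in bladder. Nppa and its activating enzyme therefore differed in pattern, with Nppa at 0 where Corin was highest. Gja5, an atrial and arterial connexin, was at 351 and 461 in lung, 558 to 648 in intestine and 46 to 90 in bladder. Stard10, a lipid transfer protein, was at 870 and 960 in lung, 1878 to 2053 in intestine and 383 to 487 in bladder. Dkk3, a secreted Dickkopf family protein, was at 4570 and 4345 in lung, 3568 to 3862 in intestine and 6721 to 7461 in bladder.

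Of 5 ventricular genes tested, 4 were higher in lung than in bladder and 0 lower, 2 were higher and 1 lower in lung than in intestine, and 4 were higher and 0 lower in intestine than in bladder (limma). Myl3, the ventricular essential light chain, was at 66 and 43 in lung, 2 to 4 in intestine and 1 to 3 in bladder. It passed the filter only through the lung libraries, so its calls of higher in lung say nothing. Lbh, a cofactor first described in limb and heart, was at 1071 and 2201 in lung, 879 to 990 in intestine and 314 to 339 in bladder. Hey2, a Notch target of the ventricle and vessels, was at 814 and 587 in lung, 833 to 906 in intestine and 65 to 94 in bladder. Mpped2, a metallophosphoesterase, was at 180 and 147 in lung, 105 to 130 in intestine and 42 to 70 in bladder. Kcnip2, a potassium channel subunit of the ventricle, was at 0 and 8 in lung, 39 to 47 in intestine and at most 6 in bladder. It passed the filter only through the intestine libraries. Its calls of lower in lung than in intestine and higher in intestine than in bladder therefore say nothing. The ventricular genes Myh7 (7 and 1 in lung) and Irx4 (0 in both lung libraries) were too low to be tested. Per nt of transcript, the ventricular essential light chain gene Myl3 averaged 0.106 reads in the lung libraries. Myl4, the essential light chain of atrial and embryonic muscle, had 0.524 and 0.462 reads there. Myl4 had been selected on its high values in lung and was also read in every intestine and bladder library. No excess of atrial over ventricular genes is therefore read from this pair. The ventricular gene Myl2 was absent from the deposited data, so the regulatory light chain Myl7 was not set beside a ventricular gene.

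Among the heart transcription factors, 20 were tested, and 6 were higher and 6 lower in lung than in bladder, 6 higher and 9 lower in lung than in intestine, and 9 higher and 8 lower in intestine than in bladder (limma). Tbx5, a T-box factor of atria and lung mesenchyme, was at 1309 and 1209 in lung, 0 in intestine and 333 to 364 in bladder. Nkx2-5, a homeobox factor that defines the heart muscle lineage, was at 3 and 3 in lung, 33 to 74 in intestine and at most 2 in bladder. The lung libraries were thus near the floor for Nkx2-5, while intestine was above it. Nkx2-5 and Hand1 passed the filter only through the intestine libraries, and Tbx20 only through the bladder libraries. Their calls against the tissue that let them pass say nothing. Tbx2, a T-box repressor, was at 4667 and 5021 in lung, 3648 to 4465 in intestine and 1880 to 2553 in bladder. Gata6 was at 2063 and 1602 in lung, 744 to 861 in intestine and 1927 to 2089 in bladder, whereas Gata4 was at 121 and 114 in lung, 1150 to 1226 in intestine and 61 to 95 in bladder. The MEF2 factors Mef2d (2367 and 2118 in lung) and Mef2a (2637 and 1420 in lung) did not pass the test against either other tissue.

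Of 19 calcium handling genes, 9 were higher and 4 lower in lung than in bladder, 6 higher and 4 lower in lung than in intestine, and 12 higher and 4 lower in intestine than in bladder (limma). Trdn, counted as higher in lung than in both other tissues, would not have passed the filter without the lung libraries, so the test says nothing about it. Atp2a2, the calcium pump of heart and smooth muscle, was at 6507 and 4959 in lung, 7478 to 7774 in intestine and 6714 to 7690 in bladder. Pln, the inhibitor of that pump, was at 76 and 29 in lung, 725 to 856 in intestine and 30 to 43 in bladder. Ryr2, the calcium release channel of heart, was at 153 and 123 in lung, 244 to 269 in intestine and 2 to 19 in bladder. Both were therefore highest in intestine, where Myh6 and Nppa were at or near 0. Casq1, a calcium-binding protein of the sarcoplasmic reticulum, was at 1291 and 1246 in lung, 151 to 196 in intestine and 12 to 20 in bladder. Jph2, which tethers that store to the cell membrane, was at 3171 and 3302 in lung, 1925 to 2391 in intestine and 817 to 842 in bladder. Casq1 and Jph2 were higher in lung than in intestine by 2.87 and 0.55 on the log2 scale (limma adjusted p = 2.97e-05 and 0.00202). The related gene Casq2 went the other way against intestine, at 175 and 70 in lung, 446 to 704 in intestine and 56 to 81 in bladder. Asph, an enzyme and junction protein of the reticulum, was at 4246 and 2482 in lung, 2391 to 2686 in intestine and 3390 to 3795 in bladder.

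Of 29 membrane and junction genes of heart, 16 were higher and 3 lower in lung than in bladder, 6 higher and 9 lower in lung than in intestine, and 17 higher and 1 lower in intestine than in bladder (limma). Cavin4, counted as higher in lung than in both other tissues, passed the filter only through the lung libraries, so the test says nothing about it. Popdc3, the gene counted as lower in intestine than in bladder, passed only through the bladder libraries, so that call says nothing either. The potassium channel gene Kcnq1 was at 52 and 55 in lung, 1564 to 1912 in intestine and 15 to 32 in bladder. Dsg2, the desmosomal cadherin of heart and epithelium, was at 10 and 0 in lung, 720 to 904 in intestine and 71 to 110 in bladder. Both genes were highest in intestine, and the epithelial marker Epcam, whose values are given above, was also highest there. Its part in the level of Dsg2 was not tested. Gja1, the main connexin of ventricle and smooth muscle, was at 3563 and 2465 in lung, 1608 to 1794 in intestine and 1537 to 1688 in bladder. Kcnh2, a repolarizing potassium channel, was at 3289 and 2522 in lung, 1495 to 1646 in intestine and 319 to 441 in bladder. Kcna5, a potassium channel of atria and pulmonary arteries, was at 1732 and 1390 in lung, 2810 to 3206 in intestine and 76 to 101 in bladder. Jup, the plakoglobin of desmosomes, was at 2948 and 2820 in lung, 3392 to 3725 in intestine and 3167 to 3222 in bladder.

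Of 18 muscle energy genes, 13 were higher and 0 lower in lung than in bladder, 7 higher and 5 lower in lung than in intestine, and 12 higher and 2 lower in intestine than in bladder (limma). Cox6a2, Ckmt2 and Mb, counted as higher in lung than in both other tissues, passed the filter only through the lung libraries. The test therefore says nothing about them. Cox6a2, the heart and muscle form of a cytochrome oxidase subunit, was at 117 and 78 in lung, 1 to 4 in intestine and at most 1 in bladder. Hspb7, a small heat shock protein of muscle, was at 2563 and 2657 in lung, 1508 to 1676 in intestine and 282 to 422 in bladder. Hspb6 was at 2048 and 2099 in lung, 742 to 1004 in intestine and 403 to 651 in bladder, and both chaperones were higher in lung than in either other tissue (limma adjusted p of at most 0.00809). Eno3, the muscle enolase, was at 516 and 621 in lung, 209 to 252 in intestine and 349 to 392 in bladder. Slc2a4, the insulin-dependent glucose transporter, was at 1663 and 870 in lung, 2299 to 2775 in intestine and 317 to 365 in bladder. Acadm, of fatty acid oxidation, was at 1947 and 1691 in lung, 1783 to 2005 in intestine and 1418 to 1588 in bladder. Ckmt2 (118 and 25 in lung, at most 3 in intestine, 0 in bladder), the mitochondrial creatine kinase of striated muscle, and Mb (82 and 36 in lung, at most 5 elsewhere), myoglobin, were named after their values were seen. Both were low outside lung and higher in lung library 1, as were Myh6 and Nppa. Other genes low outside lung were near even between the lung libraries, among them Myoz2 (136 and 122), Lmod2 (20 and 24) and Nppb (13 and 13).

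**Figure D4:**
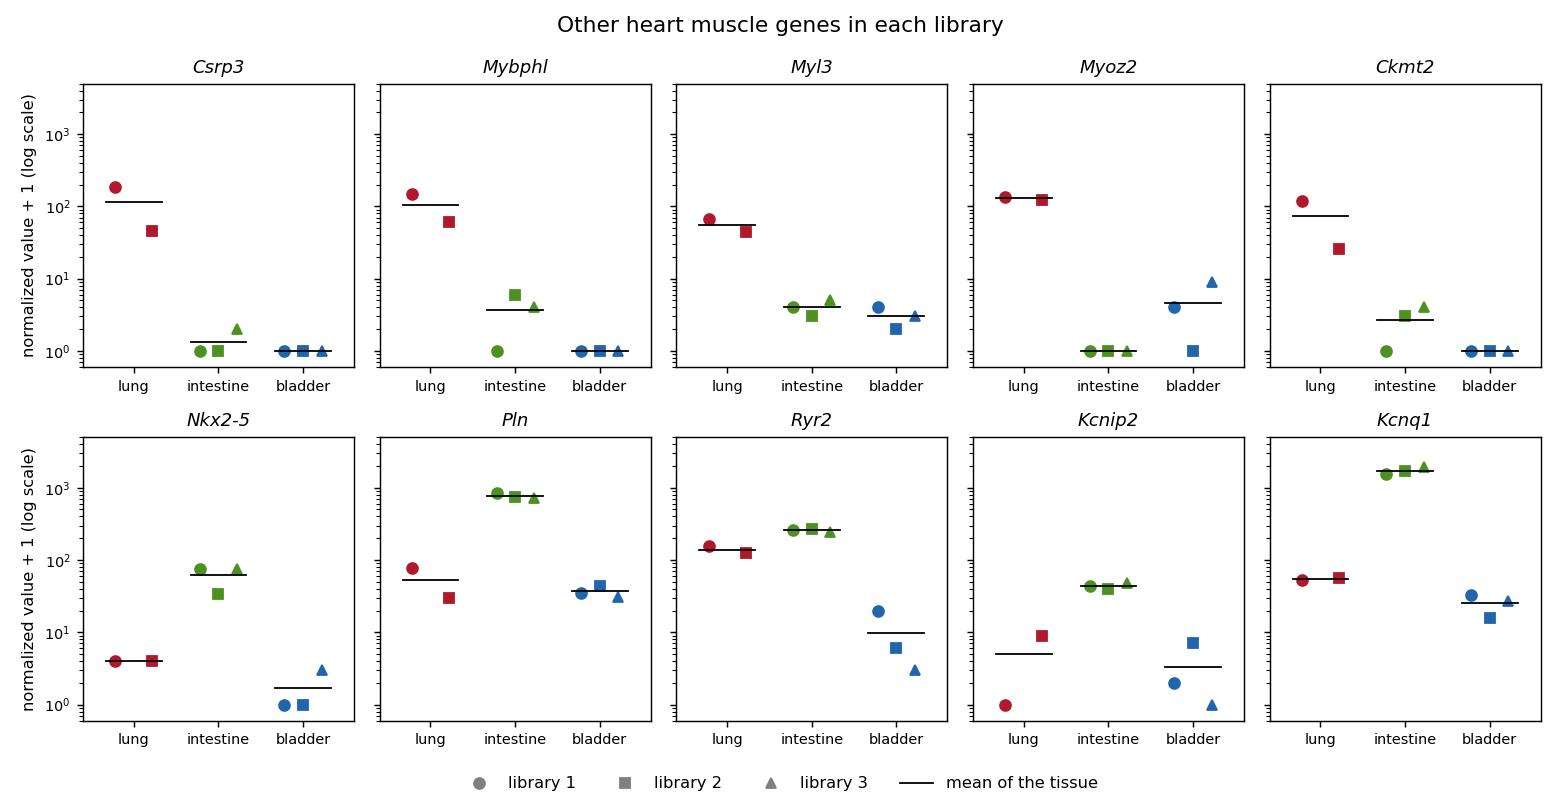
Normalized value plus 1 (log scale) of 10 other heart muscle genes in each lung, intestine and bladder library, with a line at the mean of the tissue. In the upper row (Csrp3, Mybphl, Myl3, Myoz2, Ckmt2) both lung points lie above all others, and in the lower row (Nkx2-5, Pln, Ryr2, Kcnip2, Kcnq1) intestine is highest.

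Skeletal muscle, the other striated muscle, shares several sarcomere proteins with heart. Of 24 skeletal muscle genes, 16 were in the deposited data and 10 were tested. By limma 3 were higher and 2 lower in lung than in bladder, 3 higher and 2 lower in lung than in intestine, and 1 higher and 3 lower in intestine than in bladder. Pvalb, Mybpc2 and Neb would not have passed the filter without the lung libraries, so the test says nothing about them. Acta1, skeletal alpha-actin, was at 282 and 503 in lung, 222 to 253 in intestine and 781 to 1275 in bladder. Tnnt3, the fast skeletal troponin T, was at 185 and 216 in lung, 4 to 18 in intestine and 140 to 171 in bladder. Tnnt1, the slow form, was at 83 and 106 in lung, 79 to 107 in intestine and 79 to 93 in bladder, and Mylpf at 25 and 45 in lung, 26 to 59 in intestine and 15 to 32 in bladder. Pvalb, the calcium buffer of fast fibres, was at 18 and 30 in lung, 0 in intestine and at most 3 in bladder. Of the skeletal myosin heavy chain genes, Myh1, Myh2 and Myh3 were under the filter, and Myh4 and Myh8 were absent from the deposited data. Myh1 was at 11 and 9 in lung, 0 to 1 in intestine and 0 to 7 in bladder. Myh2 was at 0 and 2 in lung, and Myh3 at 0 in both lung libraries. The skeletal list had its higher values in lung library 2, with a median log2 ratio of library 1 to library 2 of -0.47, where the 10 genes had 0.58.

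Smooth muscle and non-muscle cells use counterparts of the 10 genes from the same families. Of 17 such genes, 4 were higher and 6 lower in lung than in bladder, 4 higher and 0 lower in lung than in intestine, and 2 higher and 8 lower in intestine than in bladder (limma). Their median log2 difference was -0.17 for lung minus bladder and -0.016 for lung minus intestine. Myh11, the smooth muscle myosin heavy chain, was at 10795 and 10378 in lung, 11371 to 12454 in intestine and 4423 to 6099 in bladder. Among the other heavy chains, non-muscle Myh9 was at 3762 and 4326 in lung, 2164 to 2451 in intestine and 1875 to 2257 in bladder. Non-muscle Myh10 was at 3743 and 2733 in lung, 510 to 658 in intestine and 2464 to 2771 in bladder. The alpha-actinins Actn1 (3602 and 4421 in lung, 2322 to 2640 in intestine, 683 to 841 in bladder) and Actn4 (5504 and 5715 in lung, 5737 to 6313 in intestine, 6067 to 6455 in bladder) differed between tissues in unlike ways. None of the 17 had a ratio of at least 2 between the lung libraries, where 7.96% of all tested genes and 4 of the 10 heart muscle genes did. Of the 17, Myh11, Acta2, Actg2 and Tpm1 averaged 1.56 to 2.57 reads per nt in lung, a range in which differences were narrow over all genes. With 1 or more reads per nt, 0.244% of genes reached that ratio, so no contrast between the lists is read from this count.

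The cardiomyocyte marker list was set beside these results. All 10 of its genes had a value above 0 in both lung libraries. Of all 21649 genes, 19573 and 19396 had one in lung libraries 1 and 2, so nothing is read from this count. Nkx2-5 (3 and 3) and Myh7 (7 and 1) were low in lung. Among the 10, 5 genes, Myh6, Tnnt2, Tnni3, Actc1 and Nppa, are those described here and had been selected on their values in lung. The remaining 5, Ryr2, Pln, Mybpc3, Nkx2-5 and Myh7, summed to 26.4 and 16.7 ppm in lung libraries 1 and 2, 92.1 to 103 ppm in intestine and 3.41 to 4.38 ppm in bladder. Intestine thus had the highest sum of these 5, in which Pln and Ryr2 held the largest values. The full list of 10 summed to 472 and 398 ppm in lung, 118 to 129 ppm in intestine and 40.8 to 52.6 ppm in bladder. Airway smooth muscle markers Hhip and Lgr6 also stood higher in lung library 1, at 8879 and 6522 for Hhip and 4606 and 3124 for Lgr6. Mesothelial markers went the other way, with 43.5 and 91.1 ppm in lung libraries 1 and 2. The part of heart muscle cells, or of any other cell type, in the level of the 10 genes in lung was not tested.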

How the data were processed

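RNA sequencing of 8 libraries of sorted cells was analysed, grouped by the tissue in the labels. The authors deposited 1 table of 21649 genes, with values treated here as a score: they are whole numbers spaced like reads scaled by a library constant and rounded. According to the submitters' processing notes the tools were STAR 2.7.10a, featureCounts 2.0.4, Trimmomatic 0.39, DESeq2 1.36.0 and Picard 3.0.0, with build mm39 and no roles stated. Annotation release, strand setting and treatment of duplicates are not stated there. Reconstructed reads (9.72 to 13.62 M in a library) are the values divided by the estimated value of 1 read (0.822 to 1.2685).

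Genes reaching 10 in 2 or more libraries (18097, leaving 3552 untested) were fitted with limma 3.58.1 (R 4.3.3, intensity trend) on log2(value + 1), 1 mean per tissue, with Benjamini-Hochberg adjustment and a threshold of 0.05. All 10 genes passed this filter, Myh6 and Nppa only through the lung libraries. Log2 differences understate the change of low genes. Transcript lengths are medians over protein-coding GENCODE transcripts, found for 96.8% of gene IDs. Coordinates of genes are those of the table. Intervals of ratios are exact at 95%. The fit and the value of 1 read were tested on simulated data.

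The 10 genes and the other lists (sarcomere and Z-disc, atrial, ventricular, transcription factor, calcium handling, membrane and junction, energy, skeletal muscle, smooth muscle counterparts, cell type markers) were chosen with earlier results of these data known. From each list the text names up to 4 genes with the highest mean in lung, up to 2 with the smallest adjusted p of lung against intestine, and defining genes at or near 0 in lung. Csrp3, Myoz2, Mybphl, Mybpc3, Ckmt2, Mb, Gata4, Ryr2 and Casq2 were named after their values were seen. Some others were named for passing the filter only with the libraries of a single tissue. A gene chosen by this rule is left unreported here. Replicate numbers in the labels did not pair the libraries. Alternatives in pseudocount, filter, scaling, trend, libraries fitted and left-out libraries were computed.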

Additional observations from a re-analysis of the deposited data

How the results depend on the processing

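Across all alternatives run, the 10 genes kept a positive log2 difference from bladder in lung, and 9 kept one from intestine, Actn2 being -0.19 without lung library 1. Their median for lung minus bladder ranged from 3.64 to 4.73, and for lung minus intestine it was 2.69 with a pseudocount of 5 and 3.61 to 4.40 under the others. The median for intestine minus bladder was -0.34 under quantile normalization and 0.82 with the deposited scaling undone. Quantile normalization also turned the sign for intestine minus bladder of Actc1 (-0.47), Myl7 (-0.36), Myl4 (-0.029) and Myh6 (-0.32, at about the floor in both tissues). It moved the median of all genes by over 0.1. Leaving out 1 library at a time gave -0.050 (without intestine replicate 3) to 0.74 for Actc1. Tnnc1 passed the threshold with the scaling undone (limma adjusted p = 0.0428). The cause of these changes was not tested.

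With the deposited scaling undone, which removes the correction for depth, limma called 7988 genes higher and 1879 lower in lung than in bladder, and 8357 higher and 1914 lower in intestine than in bladder. Quantile normalization called 4888 genes higher in lung than in intestine. With a replicate block the counts were 3115 higher and 3671 lower for lung against bladder, 2474 and 4022 for lung against intestine, and 5058 and 3982 for intestine against bladder. Same-numbered libraries did not deviate together (correlations of -0.026 to 0.058), so the numbers give no pairing. A filter of 50 left Nppa untested, and leaving out either lung library left Nppa and Myh6 untested, so no median was taken there. Nppa and Myh6 outside lung, Tnni3 in intestine, and Tnnc1 and Ttn in bladder had at most 6 reads in a library, so their values there carry wide counting error.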
